A study of Daphnia magna with 22 samples.

Results

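Caloric restriction was examined in females of the GB clone of the water flea Daphnia magna, by setting the 3 libraries from restricted females against the 3 libraries from fully fed control females of the same clone. These 6 libraries were chosen by clone and diet from 22 in the series, and the other 5 GB libraries, 3 from females bathed in beta-hydroxybutyrate (BHB, a ketone body) and 2 from females bathed in nicotinamide mononucleotide (NMN, a precursor of NAD+), were described beside them. Control females received 400000 algal cells per mL each day and restricted (CR) females 100000; the BHB and NMN groups had the full diet with a daily 2 h bath in 2.5 mM BHB or 0.1 mM NMN, and control and CR females had the same bath in plain medium. Each library came from the whole body of 1 female after her newly laid eggs had been removed, at 20 °C and at an age of 75 ± 2 days. GB is a single clone from a permanent lake in London, so the groups share 1 genotype. The letter L of the titles was read as the low-food group, since no label spells it out, and tissue markers could not be checked because the table pairs no ID with a gene name.

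Caloric restriction, a lasting cut in food without starvation, lengthens life in many animals, and water fleas are a classical system for it. In animals generally, scarce food lowers insulin and TOR signalling, shifts metabolism from growth and reproduction towards maintenance, and draws on stored lipid. A Daphnia female repeatedly fills her ovary with yolk, lays a clutch and moults, so that transcripts of yolk, cuticle and digestion can move with her cycle; females were sampled soon after laying to hold that phase constant. The same diet was given to a second clone, IL, which enters here only where the effect in GB was tested against it.

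The libraries held between 13358773 and 14353733 counted reads in control, 10320588 to 12683059 in CR, 8503141 to 12640496 in BHB and 11791965 to 12333016 in NMN. After a filter on low counts 4610 gene models were tested of 8274 with any read in GB. The 3 CR females resembled each other more closely than the 3 control females did. Over these gene models, which are not independent, Pearson's r of log2 CPM (counts per 1000000 counts of the scaled library) ran from 0.981 to 0.988 between CR females and from 0.932 to 0.967 between control females. The number of gene models differing over 2-fold between females of a group was 308 to 471 in CR, 586 to 824 in control and 414 to 611 in BHB, and it was 569 between the NMN females. The median SD of log2 CPM among females was 0.206 in CR and 0.259 in control. An SD over 1 on that scale was found for 142 gene models in CR and 452 in control, of which 58 were in both lists.

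The largest axis of variation among the 11 GB libraries, with 40.9% of the variance, did not follow diet. It placed control female 2 at -50.1, control female 1 at -11.3 and control female 3 at 27.1, with the NMN females at -44.7 and -19.0. The CR females lay together at 10.2 to 13.2 and the BHB females at 18.3 to 22.1. The next axis, with 15.9%, separated the CR females, at -26.9 to -23.7, from all other GB females, at 0.332 to 17.02. Numbers 17 to 22 of the library series went to CR females alone, so diet and any step that followed that order cannot be told apart.

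**Figure D1:**
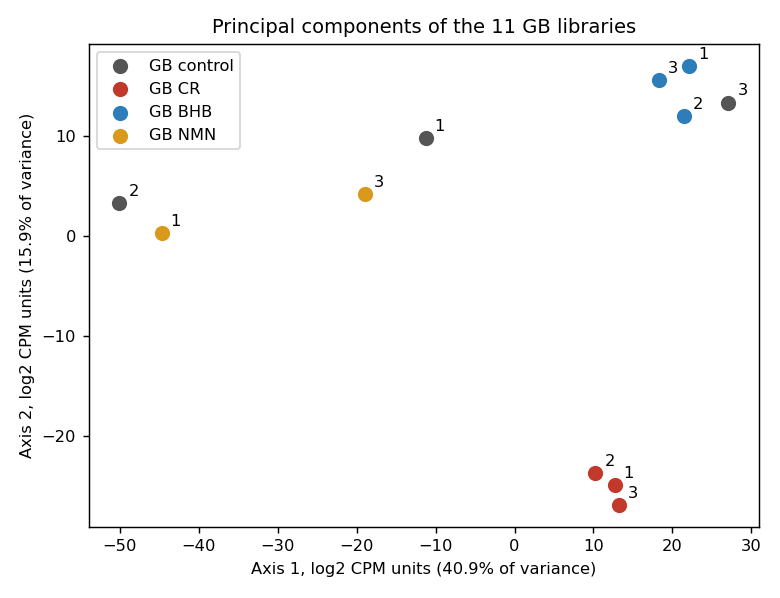
Position of each of the 11 GB libraries on the first (x) and second (y) principal component of log2 CPM, in log2 CPM units, with the female's number beside each point. The 3 CR females sit together at or below -23.7 on the second axis, while the 3 control females spread from -50.1 to 27.1 on the first.

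CR was compared with control to ask which transcripts differ between restricted and fully fed females of this clone. Of the 4610 gene models tested, 29 differed (0.629% of those tested; quasi-likelihood test of edgeR, Benjamini-Hochberg adjusted p under 0.05), of which 10 were higher in CR (0.217%) and 19 lower (0.412%). Falls were larger than rises: the median log2 fold change was 1.05 for the 10 that rose and -2.10 for the 19 that fell, against -0.0125 over all gene models tested. A change over 4-fold was found in 1 of the 10 and in 10 of the 19. Of all gene models tested, 166 (3.6%) differed by that much on average, 145 of them lower and 21 higher in CR. The lean towards large falls was thus not particular to those that passed. In whole bodies, fewer cells of a type and less RNA per cell cannot be told apart.

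The groups did not overlap in any of the 29, which their choice largely fixes. Among all gene models tested, every CR female lay above every control female in 431 (9.35%) and below in 446 (9.67%), so that most gene models with separated groups did not pass. At an unadjusted p under 0.05 there were 612, with 254 higher and 358 lower, and 46 passed at an adjusted p of 0.1.

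The number that passed depended on which females were in the fit. Without a single library it was 4 (control female 1), 15 (control female 2), 72 (control female 3), 2 (CR female 1), 2 (CR female 2), 3 (CR female 3), 5 (BHB female 1) or 7 (NMN female 3), and between 25 and 39 without one of the other 3. The BHB and NMN females enter through the shared estimate of the spread, and with the 6 control and CR libraries alone 4 gene models passed. Falls are ranked below among the 18 whose log2 CPM averaged 1 or more, which leaves out 1 very scarce gene model with a log2 fold change of -3.34. The log2 fold changes of 22 gene models, the 10 rises and the first 12 of these 18 falls, lay between 0.77 and 1.18 times their size when single libraries were left out, and their adjusted p reached at most 0.186. DESeq2 called 170 gene models, which held all 29. With library number as a linear term 1 passed, which was none of the 29. The CR libraries have higher numbers than all other GB libraries, so that term overlaps with diet. Total counts without scaling factors gave 70, with 51 higher and 19 lower, after a shift of 0.255 in the median log2 fold change of all gene models.

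**Figure D2:**
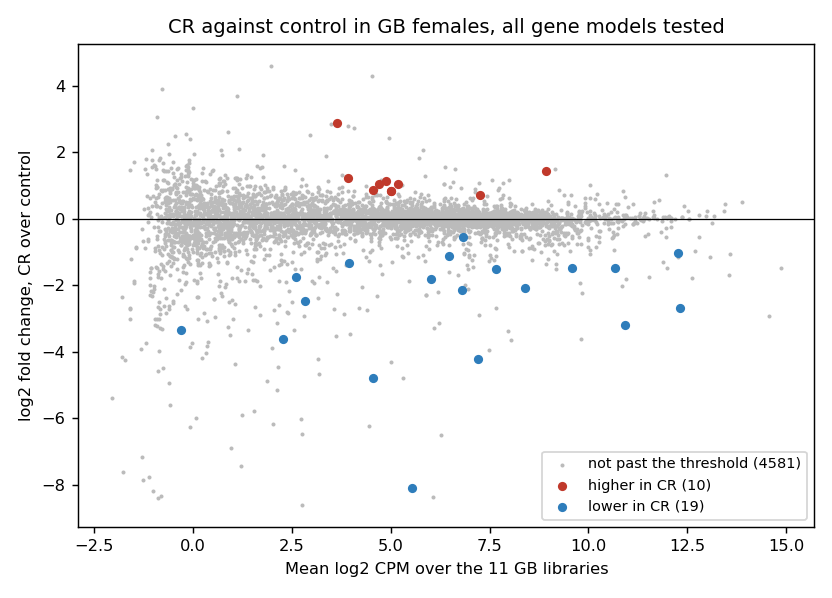
Log2 fold change of CR over control in GB females (y) against mean log2 CPM over the 11 GB libraries (x) for every gene model tested; red points passed as higher (10), blue points as lower (19) and grey points did not pass. The falls reach from low to very high abundance, while many large grey differences lie below 0.

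The largest rise was that of KZS08369. It measured 6.36, 5.24 and 4.00 CPM in the 3 control females and 43.2, 26.7 and 45.8 in the 3 CR females. Its lowest CR value was about 4 times its highest control value, and the means were 5.20 ± 1.18 and 38.6 ± 10.4 CPM (SD, n = 3 each). The log2 fold change was 2.89 ± 0.251 (SE), a 7.40-fold rise, with the smallest edgeR adjusted p of the comparison, 0.00168. It passed with each of the 11 GB libraries left out in turn (highest adjusted p 0.0167), and did not pass with all 22 libraries in the fit (0.0721) or with library number as a term (0.0605). In BHB it lay at 17.3, 17.1 and 20.8 CPM, above every control and below every CR female, and in NMN at 4.76 and 4.44, within the control range. The log2 difference of BHB from control was 1.82 with an edgeR adjusted p of 0.0888, the smallest of that comparison.

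KZS15794 had the second largest rise and was the most abundant of the 10. The control females measured 391.6, 258 and 367.5 CPM and the CR females 893.3, 894.6 and 962.1. Restricted females were therefore all over 2-fold above the highest control, with a spread of 39.3 CPM among them against 71.2 among the controls (SD, n = 3 each). The log2 fold change was 1.43 ± 0.223 (SE, edgeR adjusted p = 0.0252). The call was lost without control female 1 (adjusted p 0.0734) or 2 (0.0655), without CR female 1 (0.116), 2 (0.0775) or 3 (0.121), and with the 6 compared libraries alone (0.0704), at log2 fold changes of 1.27 to 1.55. It was also lost with library number as a term (edgeR adjusted p 0.843, log2 fold change 1.48). BHB females measured 373.9, 604.7 and 584.2 CPM and NMN females 262.1 and 370.7, all below the CR females.

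The other 8 rises were between 1.63-fold and 2.33-fold and lay in gene models of middling abundance, with control means from 12.4 to 141 CPM. The third largest went from 12.4, 10.6 and 14.2 CPM to 28.8, 23.1 and 34.9 (log2 fold change 1.22 ± 0.198 SE, edgeR adjusted p = 0.0252). The smallest, from 138.2, 134.8 and 150.1 to 220.5, 219.5 and 249.3 CPM, had a log2 fold change of 0.70 ± 0.114 (edgeR adjusted p = 0.0252). Rises were even among females, which passing the test at changes of this size largely requires. In none of the 10 did the highest female of control or of CR exceed the lowest of her group 2-fold. CR female 3 had the largest median excess over the control mean, 1.12 on the log2 scale over the 10, against 0.977 and 0.895 in CR females 1 and 2.

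**Figure D3:**
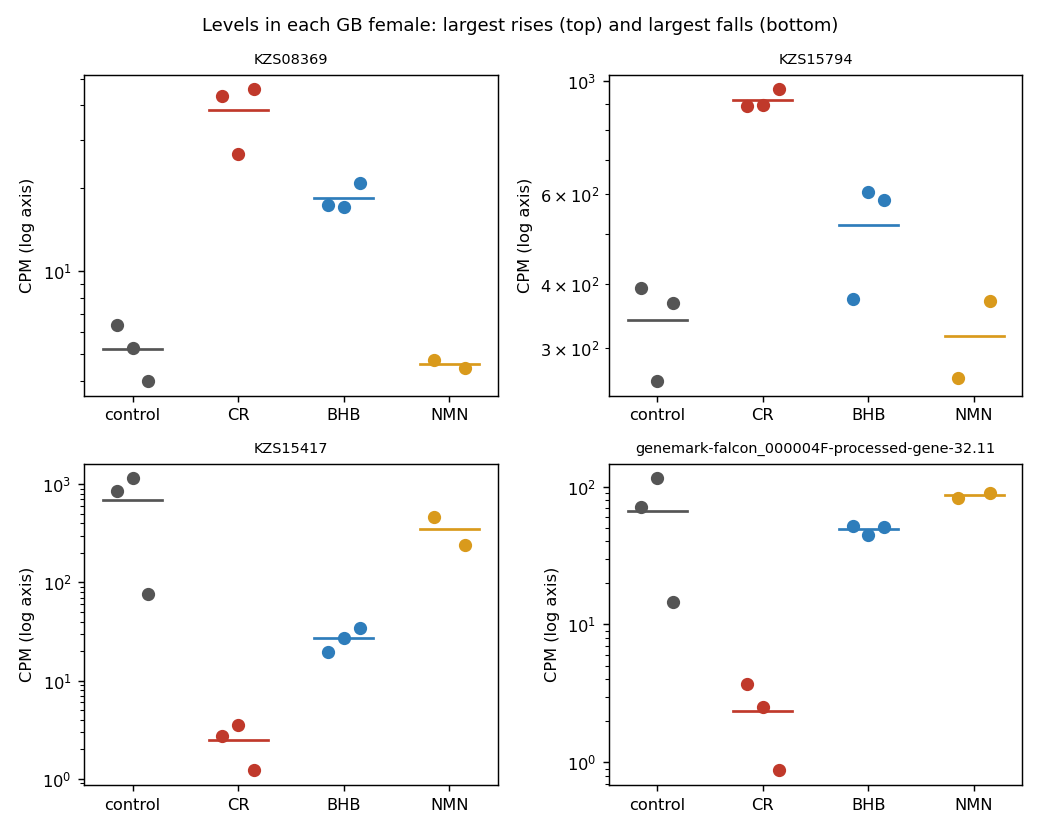
CPM on a log axis (y) in each GB female, by group (x), for the gene models with the largest rises (top) and the largest falls (bottom) in CR; points are females and bars are group means. The CR females lie beyond all control females in each panel, and BHB females lie between the control and CR females for KZS08369.

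The largest fall was that of KZS15417, which was nearly lost from restricted females. Control females measured 854.3, 1142 and 76.4 CPM, or 11413, 13500 and 1014 reads, and CR females 2.74, 3.53 and 1.22 CPM, or 39, 41 and 14 reads. The control females differed 14.9-fold among themselves, and even the lowest of them was over 20 times the highest CR female. The log2 fold change was -8.10 ± 1.10 (SE, edgeR adjusted p = 0.0252), which is 275-fold. With 1 surrogate variable in the fit, added after seeing the data, it was -6.40 (adjusted p 0.0109). BHB females were also low, at 19.5, 27.0 and 34.2 CPM, below every control female and above every CR female, with a log2 difference from control of -4.69 that did not pass (adjusted p 0.624). NMN females measured 464.5 and 237.9 CPM, inside the control range. The call was lost without control female 1 (adjusted p 0.0734), CR female 1 (0.116), 2 (0.107) or 3 (0.121), BHB female 1 (0.0519) or NMN female 3. It was also lost with the 6 compared libraries alone (0.123), without a low-count filter (0.051) and with the replicate number as a block (0.0555). The log2 fold changes in these fits were -7.79 to -8.42 (-7.89 with the block). With library number as a term the call was lost as well (edgeR adjusted p 0.621), at -7.69.

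The next was genemark-falcon_000004F-processed-gene-32.11, a predicted gene with no protein accession. It measured 70.6, 114.5 and 14.5 CPM in control and 3.72, 2.50 and 0.874 in CR. Control female 3 was again the lowest of the controls, and 14.5 CPM is still above every CR female. The log2 fold change was -4.79 ± 0.780 (SE, edgeR adjusted p = 0.0392). It measured 51.9, 44.3 and 50.9 CPM in BHB females and 82.5 and 90.4 in NMN females, both on the full diet and inside the control range. Its call was the least firm of those described, since it was lost in 10 of 11 fits that each left out 1 library (adjusted p 0.0632 to 0.186) and kept without control female 3; without a low-count filter it was 0.0884. Its log2 fold change was -4.14 without control female 2 and -3.62 with 1 surrogate variable.

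A group of the falls was in very abundant transcripts. The sixth of the 18 ranked falls began at 10171, 12088 and 11204 CPM in control, the highest level among the 29, while the CR females measured 1843, 2094 and 1287 (edgeR log2 fold change -2.68 ± 0.425 SE, adjusted p = 0.0252). The fifth of them went from 4415, 4033 and 5544 to 500.1, 688.2 and 327.7 CPM (-3.21 ± 0.506, adjusted p = 0.0252). The highest and lowest control females differed 1.19-fold at the sixth, which fell 6.405-fold, and 1.375-fold at the fifth, which fell 9.23-fold, and the groups did not overlap at either. BHB female 2 was low at both, at 3018 and 1521 CPM, while BHB females 1 and 3 measured 8385 and 10852 at the sixth and 4354 and 5773 at the fifth. NMN females lay between the groups, at 4526 and 7325 CPM for the sixth and 1322 and 2612 for the fifth. The calls of the sixth and the fifth were lost without CR female 1, 2 or 3, control female 1 or 2, or BHB female 1. They were also lost without a low-count filter (edgeR adjusted p 0.0797 and 0.0884) and with the replicate number as a block (0.0768 for each). With library number as a term each was 0.58. Each passed with the 6 compared libraries alone (0.0345).

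The third of the ranked falls went from 644.1, 287.6 and 805.5 CPM to 32.7, 50.6 and 10.4 (18.5-fold, log2 fold change -4.21 ± 0.600 SE, edgeR adjusted p = 0.0252), with all BHB and NMN females between, at 141.1 to 229.3. The same ID labels 2 rows, and reads may have been split between them. The fourth was a scarce transcript, at 120, 156 and 82 reads in the control females and 6, 15 and 7 in the CR females (8.98, 13.2 and 6.18 against 0.421, 1.29 and 0.612 CPM; log2 fold change -3.61 ± 0.445, adjusted p = 0.0145). BHB females measured 8.87 to 14.3 CPM and NMN females 7.41 and 5.86, so the 3 restricted females were the lowest of the 11. It had the smallest p of the falls, and its call was lost in 2 of 11 fits that each left out 1 library, without CR female 1 or without CR female 3.

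The remaining 13 falls ran from 1.47-fold to 5.55-fold, apart from 1 very scarce gene model (10.1-fold on 54 reads in all control and 5 in all CR females). The seventh of the ranked falls stood apart in BHB: it fell from 10.3, 7.02 and 9.12 CPM in control to 1.54, 1.98 and 1.22 in CR, and measured 24.3, 14.9 and 37.1 CPM in the BHB females, above every control. Its log2 difference of BHB from control was 1.52, with an edgeR adjusted p of 0.624. The twelfth of the ranked falls had nearly equal CR females, at 109, 112.7 and 114.2 CPM, against 406.8, 324.9 and 237.3 in control (log2 fold change -1.53 ± 0.189, adjusted p = 0.0145). The smallest fall of all was among the most even, from 138, 128.3 and 132.1 to 89.0, 96.6 and 85.9 CPM (-0.55 ± 0.0808, adjusted p = 0.0252).

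**Figure D4:**
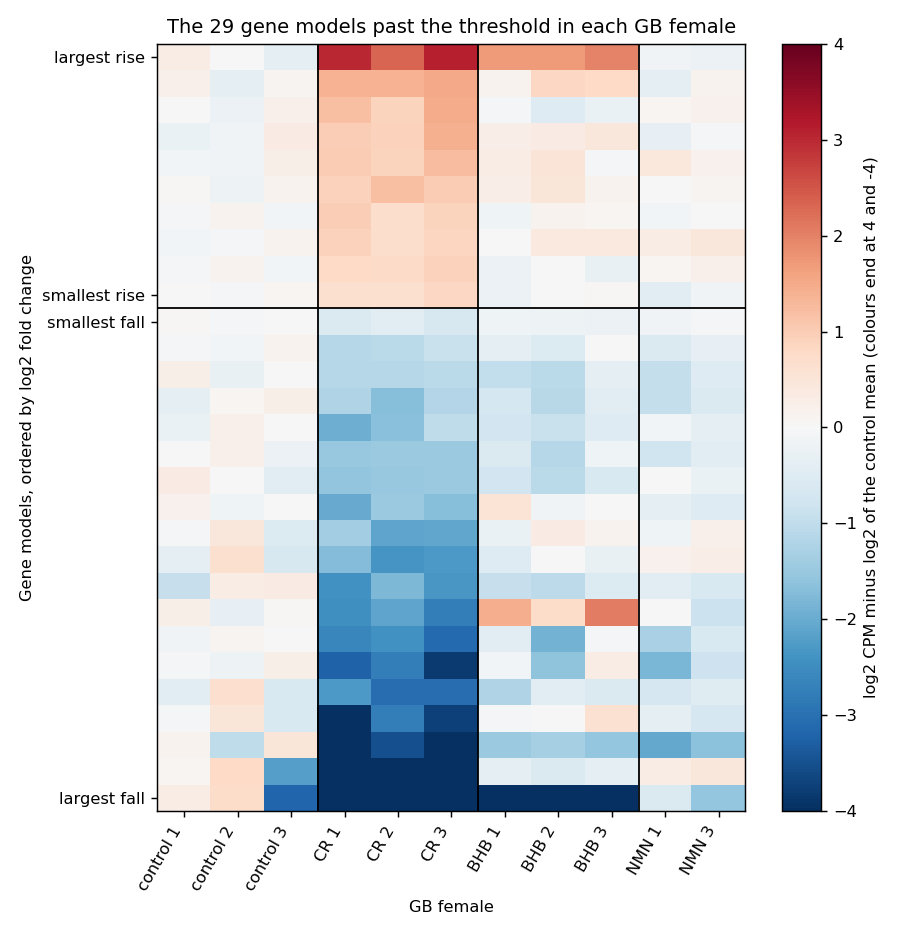
Each row is 1 of the 29 gene models that passed, ordered from the largest rise to the largest fall, and each column is 1 GB female; colour gives log2 CPM minus log2 of the control mean, with 0.1 CPM added to both. The CR columns are all above 0 in the rises and all below 0 in the falls, control female 3 is low in the bottom 2 rows, and 1 row of falls is high in all 3 BHB females.

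Abundance, ID type and spread were compared between the 29 and all gene models tested. The 461 most abundant gene models held 7 of the 29 (1 higher and 6 lower), the next 1844 held 14 (6 and 8) and the last 2305 held 8 (3 and 5). The median control level was 23.7 CPM for those that rose and 217 for those that fell. Control levels enter the fold change that sorted rises from falls, which tilts falls towards high and rises towards low control levels. There were 2 of the 29 with a gene-model ID and no protein accession, against 383 of 4610 tested, and 4 with an ID on more than 1 row, against 869. Control females varied more than CR females, by SD of log2 CPM, in 16 of the 29 and in 59.8% of all gene models tested.

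The 10 most abundant gene models of GB females took a smaller share of the counts in CR than in control females. They were ranked over the 11 GB libraries, of which 8 had the full diet, so a gene model could enter through being high on that diet, which tilts the difference towards a fall in CR. They held 18.5%, 17.2% and 21.3% of all counts in the control females and 12.7%, 12.2% and 13.95% in the CR females. BHB females stood at 21.5%, 17.2% and 22.9% and NMN females at 13.1% and 15.9%, the first of which is inside the CR range. Control and CR did not overlap, and the difference of the means was -6.04 percentage points (two-sided exact permutation p = 0.1, the smallest that 3 against 3 allows; adjusted 0.15 over 3 tests). Taking each library's own 10 most abundant gene models, an alternative added after seeing the data, gave 19.1%, 18.04% and 21.7% in control, 14.2%, 12.9% and 16.2% in CR and 14.2% and 15.9% in NMN, with a difference of CR from control of -5.19 points (exact permutation p = 0.1). The most abundant gene model alone took 5.74%, 1.91% and 6.06% in control and 0.685%, 1.31% and 0.161% in CR (exact permutation p = 0.1, adjusted 0.15). It took 9.44%, 5.91% and 8.12% in BHB, which overlaps the control range, and 1.64% and 2.56% in NMN. The difference of BHB from control in this share was not tested. The next 9 together took 12.8%, 15.2% and 15.2% in control and 12.04%, 10.8% and 13.8% in CR, which overlap (exact permutation p = 0.2, adjusted 0.2).

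**Figure D5:**
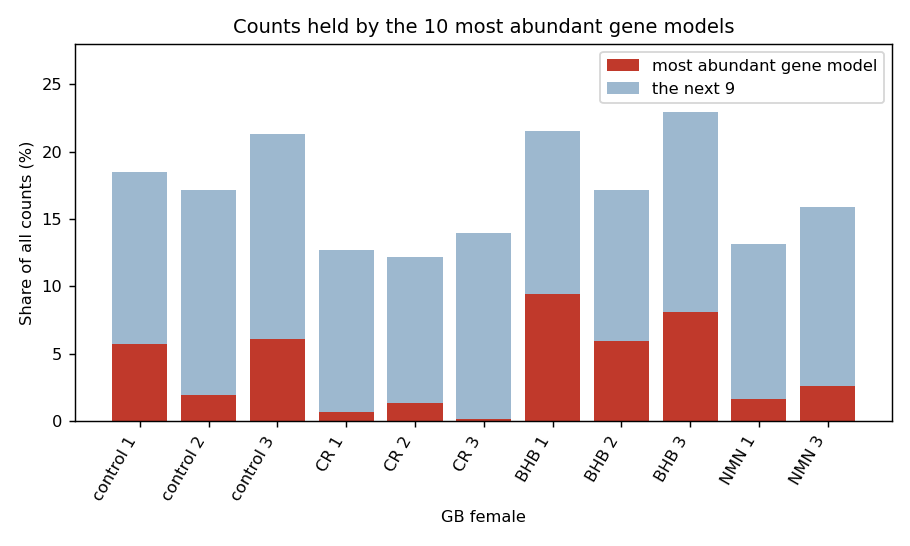
Share of all counts (y, percent) held by the 10 most abundant gene models in each GB female (x), divided into the most abundant one (red) and the next 9 (blue). The CR bars end between 12.2% and 13.95% and the control bars between 17.2% and 21.3%, and the red part is smallest in the CR females.

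None of these 10 passed on its own in edgeR (0 of 10, smallest adjusted p 0.0729), where 29 of 4610 (0.629%) did in all. At that share, 0 of 10 says nothing particular about abundant gene models. The most abundant had 59168, 21536 and 65606 CPM in control and 6091, 11610 and 1471 in CR (edgeR log2 fold change -2.93 ± 0.705 SE, adjusted p = 0.139). Control female 2 was the lowest of the controls here and CR female 3 the lowest of all, and the groups did not overlap. The second most abundant had 33022, 53902 and 53970 CPM in control and 16169, 15073 and 19520 in CR (-1.47 ± 0.304, adjusted p = 0.0729), again without overlap. The third measured higher in CR, at 19689, 17428 and 24272 against 11786, 16175 and 15184 CPM (0.51 ± 0.215, adjusted p = 0.343).

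Large differences that did not pass were mostly falls, and control female 2 was often the highest control. There were 155 gene models with a difference over 4-fold that did not pass, 135 lower and 20 higher in CR. In 132 of the 155 the SD of log2 CPM was over 1 in control or CR, and in 101 the groups overlapped. Among the 135, the highest control female was number 2 in 87 (64.4%), number 3 in 31 and number 1 in 17, where number 2 was the highest in 38.8% of all gene models tested. The 135 were chosen for a large fall that did not pass, so that low CR levels and a wide spread follow from the choice and the values are a description. The median level over the 135 was 2.32, 6.17 and 1.51 CPM in control females 1, 2 and 3 and 0.603 to 0.631 in the CR females. It was 0.907 to 1.26 CPM in BHB and 3.43 and 2.43 in NMN, so that both NMN medians lay above those of control females 1 and 3. An example chosen after its values were seen measured 162, 4772 and 17.5 CPM in control, 20.1, 21.2 and 12.5 in CR, 13.5, 17.5 and 11.3 in BHB and 3867 and 679 in NMN (log2 fold change -6.52, edgeR adjusted p = 0.22).

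The CR females were also compared directly with the females on the full diet that were bathed in BHB. Of 4610 gene models, 14 differed (0.304%), 7 higher (0.152%) and 7 lower (0.152%) in CR. This comparison shares its CR libraries with the one above. The largest rises were KZS10168 and KZS05953. KZS10168 measured 289.7, 219.5 and 248.9 CPM in CR and 46.2, 89.3 and 90.7 in BHB (log2 difference 1.75, edgeR adjusted p = 0.0389), with 116, 190.4 and 126.1 in control between. KZS05953, the third largest rise against control, measured 11.6, 8.73 and 10.4 CPM in BHB (log2 difference 1.49, adjusted p = 0.0151). The largest falls were the seventh and the fourth of the ranked falls against control, KZS12501 (-3.997, adjusted p = 0.00709) and KZS16639 (-3.82, adjusted p = 0.0135), whose values are given above. The count was 142 with the CR and BHB libraries alone and 190 in DESeq2. It was 2 without BHB female 1, 5 without BHB female 3, 9, 51 and 36 without control females 1, 2 and 3, and 0, 3 and 0 without CR females 1, 2 and 3.

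Against NMN, with 2 females, 5 gene models differed (0.108%), 3 higher (0.0651%) and 2 lower (0.0434%) in CR. KZS08369 was the largest rise here as well (log2 difference 3.07, edgeR adjusted p = 0.00497). KZS05952 measured 7.16, 9.22 and 9.18 CPM in CR against 0.624 and 1.42 in NMN (3.05, adjusted p = 0.0385), with 2.40, 2.71 and 3.69 in control and 1.88 to 3.17 in BHB. The falls were KZS16639 (-3.10, adjusted p = 0.0479) and KZS08085, the twelfth of the ranked falls against control, at 109 to 114.2 CPM in CR and 324.1 and 268.1 in NMN (-1.40, adjusted p = 0.045). The count was 77 with the CR and NMN libraries alone and 126 in DESeq2. It was 39 without control female 2 or control female 3, 8 and 0 without NMN females 1 and 3, 2 and 1 without BHB females 1 and 3, and 1, 1 and 3 without CR females 1, 2 and 3.

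Neither bath alone differed from control in GB at the threshold: 0 gene models passed for BHB (0%; 355 at an unadjusted p under 0.05 in edgeR, 14 in DESeq2) and 0 for NMN (0%; 136 at an unadjusted p under 0.05, 5 in DESeq2). Without control female 3, 84 gene models passed for BHB, and 1 did without BHB female 3 or CR female 2. For NMN, 9 passed without NMN female 1 and 1 without control female 2. These comparisons share the control libraries with that of CR, so the values of the 29 in them are given only side by side. Over the 10 that rose in CR, the median log2 difference from control was 0.27 in BHB (-0.28 to 1.82) and 0.00 in NMN (-0.27 to 0.37). For the 19 that fell it was -0.58 in BHB (-4.69 to 1.52) and -0.51 in NMN (-1.82 to 0.38).

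Whether the effect of CR differed between the clones was tested as an interaction in a fit of all 22 libraries. Of 4965 gene models tested there, 0 passed in edgeR (0%), 411 had an unadjusted p under 0.05 and 26 passed in DESeq2. Both gene models with the lowest p in edgeR were among the 19 falls. KZR97438 measured 19.1, 25.1 and 29.1 CPM in GB control and 10.7, 7.43 and 10.97 in GB CR, but 10.0, 8.97 and 13.1 in IL control and 15.6, 21.4 and 15.7 in IL CR. The measured changes had opposite directions, without overlap of diets in either clone. That in IL did not pass (log2 fold change 0.72, edgeR adjusted p = 0.187). The difference of the log2 fold changes was -2.05 ± 0.354 (SE, edgeR adjusted p = 0.1). KZS21268, an abundant transcript, went from 6424, 5992 and 7323 to 3003, 3127 and 3635 CPM in GB. In IL it measured 3086, 3828 and 3142 CPM in control and 3538, 5823 and 4622 in CR (difference -1.49 ± 0.283, adjusted p = 0.125). The count was 4 without GB control female 1 and 1 without GB CR female 3.

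The GB changes were of unequal size in IL. The 29 were chosen for passing in GB, so smaller changes in IL can follow from that choice alone. The 10 gene models that rose in GB had log2 fold changes of 0.47 to 1.43 in IL, with a median of 0.78, and 5 of them passed there, where 61 of 4965 (1.23%) did in all. KZS08369 rested on 1 female in IL, at 4.01, 6.76 and 33.7 CPM in CR against 9.18, 5.75 and 1.58 in control. The 19 that fell in GB ranged from -3.39 to 0.72 in IL with a median of -0.63, and 2 passed. KZS15417, the largest fall in GB, measured 25.9, 13.6 and 130.8 CPM in IL control and 81.5, 8.84 and 9.49 in IL CR, which overlap. None of these differences between clones passed in edgeR (0 of 29, smallest adjusted p 0.1). DESeq2 called 26 of 4965 in all and 8 of the 29. These 8 were all among the falls, including KZS15417 (difference -7.34, DESeq2 adjusted p = 0.00021), KZR97438 and KZS21268. The 29 were chosen with the same GB control and CR libraries that enter this test, which tilts them towards a difference between clones.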

How the data were processed

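The authors deposited raw, unnormalized counts per gene model, which the labels describe as sense reads; the kit (NEBNext Ultra II Directional) keeps strand. Quality control with FastQC, trimming with Trim Galore 0.4.5, STAR and DESeq2 are named in the submitters' processing notes. Which tool counted reads, and on which build and annotation, is not given in the sources used here. None of 9831 distinct IDs (0 matched) was found in the reference gene table of assembly ASM2063170v1.1, so gene lists could not be applied. Only a few IDs per comparison were printed, the largest changes that passed in each direction, among gene models whose log2 CPM averaged 1 or more. For the clone interaction, where none passed in edgeR, those with the smallest p were printed. Others are described by rank. The table has 14657 rows; a suffix tells rows of a repeated ID apart.

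The 11 GB libraries were fitted as 4 group means in edgeR 4.0.16 (R 4.3.3) with filterByExpr (minimum count 10, minimum total 15), TMM scaling and the robust quasi-likelihood test, adjusted by Benjamini-Hochberg at 0.05. CPM divide counts by the TMM-scaled library size; log2 CPM used a prior count of 2. Each standard error was the absolute log2 fold change over the square root of F. The biological coefficient of variation was 31.3%. The clone interaction used 8 group means over 22 libraries. The script was tested on simulated data. Each female counts as 1 replicate; females descend from 3 founders per clone, and the labels do not tie them to founders, so p-values measure the spread between these females. Libraries of 1 group differed far beyond counting noise (chi-square over its degrees of freedom at least 47.5 in every GB pair). Depth limits the scarcest gene models most. Alternatives were DESeq2 1.42.0, median-ratio scaling, other filters, the replicate number as a block, other sets of libraries, library number as a term, summed rows and single libraries left out; a surrogate variable (sva 3.50.0), no scaling factors and the alternatives for BHB and NMN against control were chosen after seeing the data. The age was read from the design text with its symbol-font character as plus-minus. The members and comparisons were chosen with earlier results of these data known.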

Additional observations from a re-analysis of the deposited data

How the results depend on the processing

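Over the alternatives tried, no log2 fold change of the 22 gene models changed sign, with 19 of the 22 measured where rows of 1 ID were summed. All 22 kept their calls in DESeq2, with median-ratio scaling, with no scaling factors and with the filter of 1 CPM in 3 libraries. With library number as a term 0 of 22 kept them, and the smallest edgeR adjusted p was 0.0605. The log2 fold changes there were 0.614 to 1.54 times their size, with a median of 1.05. The CR libraries have the highest numbers in GB, so this fit cannot separate library order from diet. Calls were lost for 19 in the compared libraries alone, 7 with no low-count filter, 5 with 1 surrogate variable and 3 with all 22 libraries. The count of gene models that differed between CR and control (29) was 170 in DESeq2, 4 in the compared libraries alone, 51 with all 22 libraries, 1 with library number as a term and 70 with no scaling factors; without a low-count filter it was 30, of which 21 were among the 29. CR against BHB (14) gave 190 in DESeq2, 29 with no low-count filter, 142 in the compared libraries alone, 78 with all 22 libraries, 0 with library number as a term (in edgeR, 160 with p under 0.05 before adjustment), 73 with 1 surrogate variable and 105 with no scaling factors. CR against NMN (5) gave 126, 13, 77, 11, 1, 1 and 3 under the same settings. BHB against control (0) gave 14 in DESeq2, 1 with no low-count filter and 1 with 1 surrogate variable; NMN against control (0) gave 5 in DESeq2 and 1 with library number as a term. The clone difference (0) gave 26 in DESeq2 and 3 with no low-count filter. The causes were not tested.

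Leaving out single libraries gave 2 to 72 gene models for CR against control, 0 to 51 for CR against BHB, 0 to 39 for CR against NMN, 0 to 84 for BHB and 0 to 9 for NMN against control, and 0 to 4 for the clone difference, for which the 6 GB control and CR libraries were left out in turn and no IL library; where 1 NMN female remained she was assumed to vary like the other groups. The share of the 10 most abundant differed by -6.96 to -4.88 percentage points. Of the 22 calls, 18, 12 and 1 were lost without control females 1, 2 and 3, 21, 20 and 20 without CR females 1, 2 and 3, 17, 1 and 4 without BHB females 1, 2 and 3, and 2 and 15 without NMN females 1 and 3. By the limit of 0.1 for every pair, the numbers in the titles were not taken to pair the females: deviations of same-numbered control and CR females correlated at -0.0527, 0.034 and 0.0787, and control female 1 correlated best with CR female 2 (0.146). Same-numbered CR and BHB females correlated at 0.102, 0.0595 and 0.138, above every differently numbered CR and BHB pair (highest 0.0532). Deviations within a group cancel out, so these correlations are tied to each other and cannot decide whether the females are paired. With the replicate number as a block, 17 gene models differed between CR and control, 15 of them among the 29, 10 between CR and BHB, 3 between CR and NMN and 1 in the clone difference, and 12 of the 22 calls were lost.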

Other observations

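A few scarce gene models had no reads in 1 of the compared groups, control or CR. There were 3 rows with 0 reads in all CR females and at least 3 in every control female. Of these, 1 had 34, 4 and 4 reads in control and 3 in all BHB females together, 1 had 5, 4 and 3, and 1 had 4, 48 and 3, with 18 reads in the NMN females together. Conversely, 2 rows had 0 reads in all control females and at least 3 in every CR female, with 4, 3 and 6 reads in 1 and 4, 6 and 3 in the other. The first of these had 11 reads in the 2 NMN females and 4 in the 3 BHB females, and the second had 2 and 0. Only 1 of the 5 passed the filter on low counts, and its edgeR adjusted p was 0.214, so these are descriptions of single libraries at low depth.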
